A study of Mus musculus with 6 samples.

Results

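The genes described here encode the complement and coagulation proteins of mouse liver, and were taken as a named list of 41 genes by their symbols in the expression table. A total of 40 had a row, out of 12603 rows with values in all libraries. *C4b* is not analysed here. Of the 40, 34 are made mainly by hepatocytes, 5 are made by other cells (*C1qa*, *C1qb*, *C1qc*, *Cfd* and *Cfp*), and *C5ar1* is a receptor of white blood cells. The libraries hold polyadenylated RNA from livers of mice bearing Hepa 1-6 tumours, which grow from a cultured mouse liver cancer line. Of 6 libraries, 3 are labelled wild type (WT) and 3 Akr1d1 knockout (KO). All of the mice had the tumour, and no liver of a tumour-free mouse is analysed here. The labels give no age, sex or strain, and do not say which part of *Akr1d1* was targeted or whether each library is a separate animal. The p-values therefore measure the spread between these samples, which may be technical. Where the tumours grew, and whether tumour tissue was kept out of the liver samples, is not stated in the labels.

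Blood clotting is a cascade of proteases that the liver secretes as inactive zymogens, ending in thrombin, which turns fibrinogen into fibrin. Antithrombin, protein C and protein S hold the cascade back, and plasmin dissolves the clot. Complement is a second secreted protease cascade, which starts from antibody-bound C1, from mannose-binding lectins or from factor B, converges on C3, and ends in a pore built from C5b to C9. Hepatocytes are the main source of most of these proteins, whereas C1q comes mainly from macrophages, adipsin (*Cfd*) from fat cells and properdin (*Cfp*) from white blood cells.

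The table holds relative expression, in which a gene's level in a library was divided by its mean over libraries, so 1 is the gene's average and genes cannot be compared with each other for abundance. The number of reads behind a value is unknown, and no counting interval can be given. Differences between groups are given as log2 changes of value + 0.1 with limma's standard error, and p-values were adjusted over all 12578 genes tested. The targeted gene went against the labels. *Akr1d1* (chromosome 6, 37530173 to 37568815, plus strand, mm10) had values of 0.826, 0.697 and 0.881 (labelled WT) against 1.22, 1.21 and 1.35 (labelled KO), a ratio of means of 1.57 (log2 change 0.60, SE 0.11, limma adjusted p = 0.170). Every direction given here is between libraries as labelled: WT and KO stand for the libraries labelled so, and values stand in the order of replicates 1 to 3. An exact permutation test of 3 against 3 libraries cannot go below a two-sided p of 0.1.

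Hepatocyte-made clotting and complement genes had slightly lower means in the libraries labelled KO in the values as deposited, and no single gene passed the test. Of the 34, 31 had a ratio of means (KO over WT) below 1, with a median ratio of 0.923 and a range of 0.804 to 1.15. Their median log2 change was -0.10, against -0.0043 over all genes tested. The log2 change was negative in 91.2% of the 34, and in 51.0% of all genes tested. The latter share also stands beside the counts of negative changes given below for the values as deposited. In 14 of the 40 members (35.0%) the highest KO library was still below the lowest WT library, where 10.1% of all genes tested had that order. In *C1qc* and *Cfd*, 2 members, the lowest KO library was above the highest WT library, where 8.86% of all genes had that order. Over all genes 0.0159% were called at an adjusted p under 0.05, and 0 of the 40 members were, the smallest adjusted p among them being 0.286. At an unadjusted p under 0.05, 6 members were lower, where 5.53% of all genes were, and 1 was higher, where 6.5% were. The 6 became 0 with libraries scaled to hepatocyte markers (1.73% of all genes), and 2 with a replicate block (4.65%), without WT replicate 1 (3.95%) or without KO replicate 2 (4.01%). They became 3 without WT replicate 2 (4.23%), without WT replicate 3 (5.15%) or without KO replicate 3 (4.97%). These genes are a small list chosen with earlier results known, so the shares describe it and no test of the list is given.

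The direction depended on what the libraries were scaled to. As deposited, a set of 17 hepatocyte markers that are no members had a median log2 change of -0.083, with 14 negative and 3 positive, among them *Ttr* at a ratio of 0.825 and *Apob*, the highest, at 1.26. The median value of these markers was 1.01, 1.08 and 1.02 in the WT libraries and 0.947, 0.931 and 0.924 in the KO libraries. With each library divided by that median, the 34 hepatocyte members had a median log2 change of 0.033, 12 of 34 were negative, and KO lay wholly below WT in 2 of them and wholly above in 3. Over all genes 2.71% lay wholly below and 24.2% wholly above under that scaling. The same division moved the median of all genes to 0.13. The hepatocyte members stood 0.10 below the median of all genes before and after it (differences of -0.10 in both). Dividing a library by 1 number shifts all of its genes alike, so this difference could hardly change. With libraries scaled instead to the median of all genes, 31 of 34 were negative and KO lay wholly below WT in 13, where 9.77% of all genes did so. In RNA of whole liver, fewer hepatocytes and less RNA of these genes per hepatocyte cannot be told apart.

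**Figure D1:**
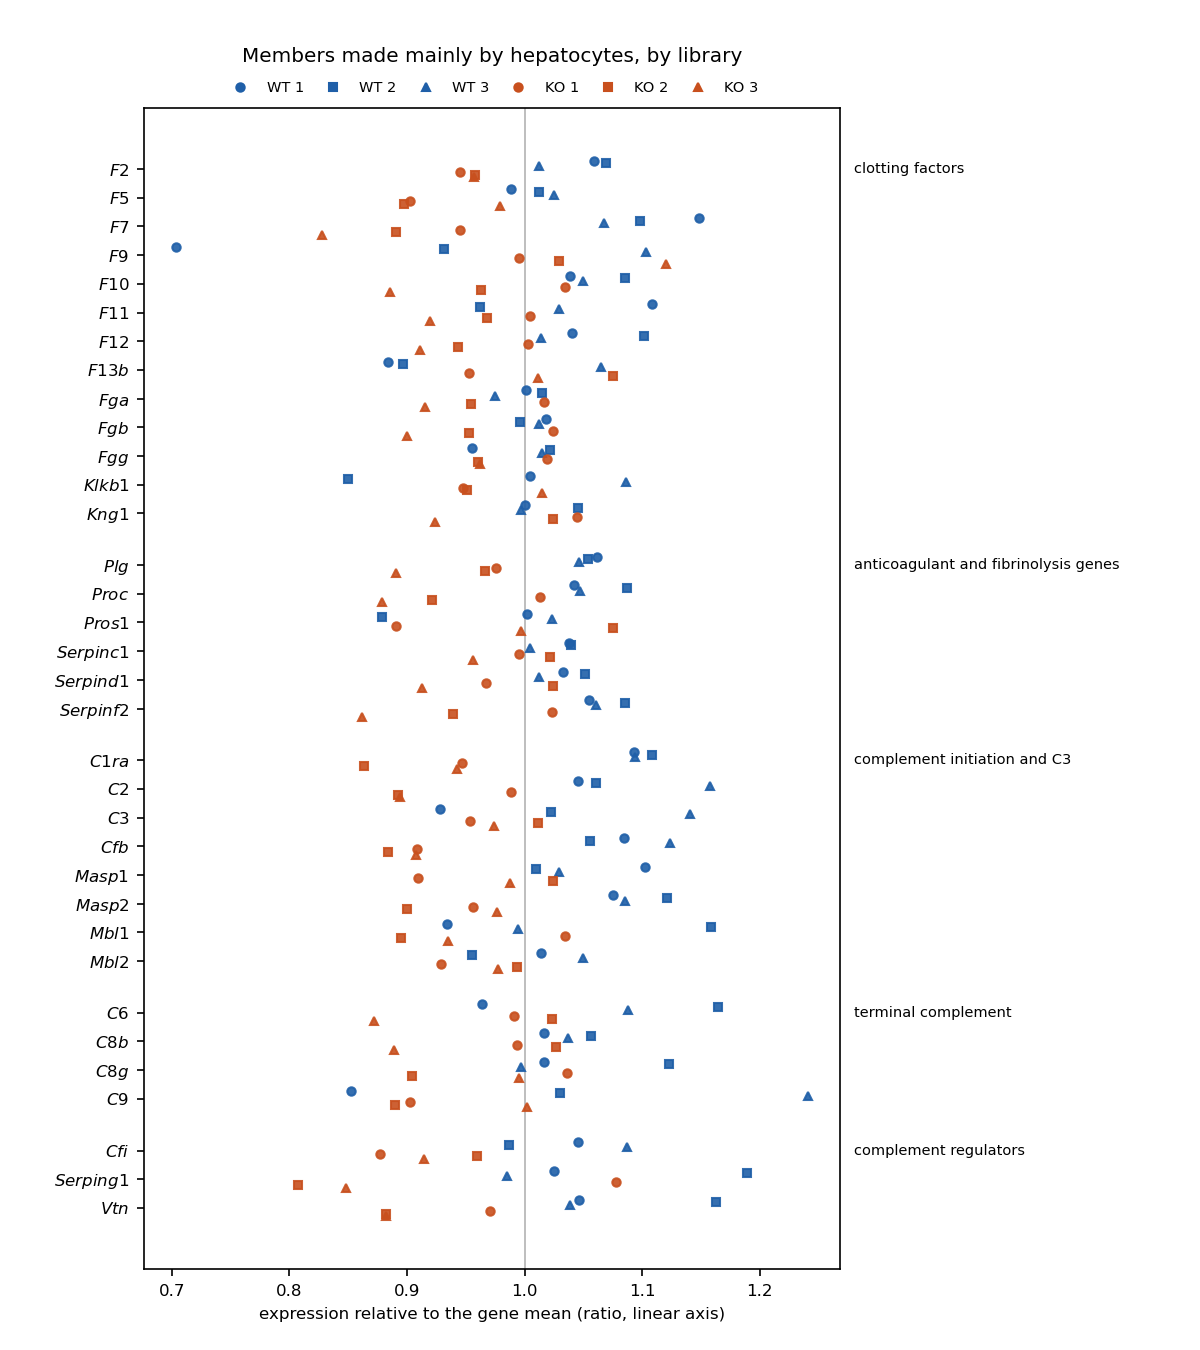
Expression of the 34 hepatocyte members in each library, relative to each gene's mean (linear axis), grouped by role. Blue marks stand for libraries labelled WT, orange for KO, and shapes for replicates, and most values lie between 0.8 and 1.2. Orange marks lie to the left of all blue marks in 14 genes as deposited, where 10.1% of all genes lie so. After scaling to hepatocyte markers they do in 2, when 2.71% of all genes lie so.

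Among the clotting factors, *F7*, which starts the cascade together with tissue factor, had the lowest ratio. Its values were 1.15, 1.10 and 1.07 (labelled WT) against 0.946, 0.891 and 0.828 (labelled KO). The groups did not overlap, and the lowest value was in KO replicate 3. The means were 0.888 ± 0.0589 in KO and 1.10 ± 0.0409 in WT (SD, n = 3), which gives a ratio of 0.804 (log2 change -0.29, SE 0.08, limma adjusted p = 0.286), with a 95% interval of the log2 change of -0.49 to -0.09. *F7* (chromosome 8, 13026034 to 13035809, plus strand) lies 1498 bases upstream of *F10* on the same strand, with no protein-coding gene between them. *F10* encodes factor X, which makes thrombin, and its values were 1.04, 1.09 and 1.05 (labelled WT) against 1.03, 0.963 and 0.886 (labelled KO). Its groups did not overlap either, though KO replicate 1 came close to the lowest WT library (ratio 0.908, log2 change -0.13, SE 0.08, limma adjusted p = 0.598). The ratio of *F7* to *F10* within a library was 1.01 to 1.11 in the WT libraries and 0.914 to 0.934 in the KO libraries. Both neighbours had lower means in the libraries labelled KO, with a larger difference in *F7*.

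Prothrombin (*F2*) had values of 1.06, 1.07 and 1.01 (labelled WT) against 0.945, 0.958 and 0.957 (labelled KO). The KO libraries lay close together and all below WT, and the difference was small (ratio 0.911, log2 change -0.12, SE 0.07, limma adjusted p = 0.546). *F5*, the cofactor of factor X, had values of 0.988, 1.01 and 1.02 (labelled WT) against 0.903, 0.897 and 0.979 (labelled KO), again without overlap (ratio 0.918, adjusted p = 0.604). *F12*, which starts the contact pathway, had 1.04, 1.10 and 1.01 (labelled WT) against 1.00, 0.943 and 0.911 (labelled KO), where KO replicate 1 and WT replicate 3 nearly met (ratio 0.906, adjusted p = 0.564). The other contact genes overlapped between the groups. *F11* had a ratio of 0.933, *Klkb1*, which encodes plasma prekallikrein, 0.991, and *Kng1*, which encodes kininogen, 0.983. *F11* and *Klkb1*, 4657 bases apart on the same strand, differed most in WT replicate 2, at 0.962 and 0.850.

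Fibrinogen showed little difference. Its 3 chains, *Fga*, *Fgb* and *Fgg*, lie in a cluster on chromosome 3 and had ratios of 0.965, 0.951 and 0.984, with adjusted p-values of 0.840, 0.774 and 0.929 in limma. *Fgb* stood at 1.02, 0.996 and 1.01 (labelled WT) against 1.02, 0.953 and 0.900 (labelled KO). KO replicate 1 was just above every WT library and KO replicates 2 and 3 below, so the groups overlapped. The ratio of *Fga* to *Fgb* stayed between 0.963 and 1.02 in every library, and that of *Fgg* to *Fgb* between 0.938 and 1.07. The 95% intervals of the log2 change were -0.23 to 0.14, -0.26 to 0.13 and -0.20 to 0.16, all of which include 0.

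*F9* and *F13b* had higher means in the libraries labelled KO. *F9*, the X-linked gene of factor IX, had values of 0.703, 0.931 and 1.10 (labelled WT) against 0.995, 1.03 and 1.12 (labelled KO). WT replicate 1 was the lowest of all, and WT replicate 3 lay within the range of the libraries labelled KO (ratio 1.15, log2 change 0.20, SE 0.16, limma adjusted p = 0.669). *F13b*, the carrier subunit of the fibrin-linking factor XIII, had 0.884, 0.896 and 1.06 (labelled WT) against 0.952, 1.08 and 1.01 (labelled KO), where WT replicates 1 and 2 were below every KO library and WT replicate 3 lay among them (ratio 1.07, adjusted p = 0.769). Of the 13 clotting factors, 11 had a negative log2 change (median -0.068, or 0.069 with libraries scaled to hepatocyte markers). In 5 of them KO lay wholly below WT as deposited, where 10.1% of all genes did.

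The genes that restrain clotting or dissolve clots had a median log2 change of -0.12, or 0.022 with libraries scaled to hepatocyte markers. As deposited, 5 of 6 were negative, and KO lay wholly below WT in 3, where 10.1% of all genes did. Plasminogen (*Plg*), the zymogen of plasmin, stood at 1.06, 1.05 and 1.05 (labelled WT) against 0.976, 0.967 and 0.891 (labelled KO). The WT libraries lay close together and all above KO (ratio 0.896, log2 change -0.14, SE 0.07, limma adjusted p = 0.512). Alpha-2-antiplasmin (*Serpinf2*), which blocks plasmin, stood at 1.06, 1.09 and 1.06 (labelled WT) against 1.02, 0.939 and 0.862 (labelled KO), also without overlap (ratio 0.882, adjusted p = 0.514). Thus both the enzyme and its inhibitor were lower in every KO library. Protein C (*Proc*), which switches off factors V and VIII, had 1.04, 1.09 and 1.05 (labelled WT) against 1.01, 0.922 and 0.879 (labelled KO) (ratio 0.886, adjusted p = 0.511), whereas its cofactor protein S (*Pros1*) overlapped, at 1.02. The thrombin inhibitors antithrombin (*Serpinc1*) and heparin cofactor II (*Serpind1*) overlapped too, with ratios of 0.965 and 0.938. In *Plg*, *Proc*, *Serpinf2*, *Serpinc1* and *Serpind1*, KO replicate 3 had the lowest value.

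The genes of complement initiation and C3 held 4 of the 6 members that were lower at an unadjusted p under 0.05, where 5.53% of all genes were. As given above, the 6 became fewer under several alternatives. Of the 8, all had a negative log2 change (median -0.14, or -0.0073 with libraries scaled to hepatocyte markers). As deposited, KO lay wholly below WT in 4, where 10.1% of all genes did. Those 4 were *C1ra*, *C2*, *Cfb* and *Masp2*. *C1ra*, the protease that first becomes active in C1 (chromosome 6, 124512405 to 124523443, plus strand), had values of 1.09, 1.11 and 1.09 (labelled WT) against 0.947, 0.863 and 0.943 (labelled KO). The WT libraries were nearly equal and every KO library lay well below them (ratio 0.835, log2 change -0.24, SE 0.07, limma adjusted p = 0.321). *Cfb*, factor B of the alternative pathway (chromosome 17, 34856374 to 34862518, minus strand), had 1.08, 1.06 and 1.12 (labelled WT) against 0.908, 0.884 and 0.907 (labelled KO). Here too the KO libraries lay close together and apart from WT (ratio 0.827, log2 change -0.25, SE 0.07, limma adjusted p = 0.286). *C2*, its counterpart in the classical pathway, lies upstream of *Cfb* on the same strand, with 85 bases between its end and the start of *Cfb*, and had 1.05, 1.06 and 1.16 (labelled WT) against 0.989, 0.892 and 0.894 (labelled KO) (ratio 0.850, adjusted p = 0.400). Both share exon sequence with another annotated gene on that strand, *Gm20547*, as *Klkb1* does with *Gm45753*. Exons of *C2* also overlap *Zbtb12* on the other strand, and so do those of *Plg* with *Slc22a3*, *Serpinc1* with *Zbtb37*, *F5* with *Gm16548* and *Fgg* with *Gm30097*. The sources used here do not say how such reads were counted, so the values of these genes are uncertain to that extent. The ratio of *Cfb* to *C2* was 0.919 to 1.04 over the 6 libraries.

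In the lectin pathway *Masp2*, the protease that cleaves C4 and C2, had 1.07, 1.12 and 1.09 (labelled WT) against 0.956, 0.900 and 0.977 (labelled KO) without overlap (ratio 0.863, adjusted p = 0.389). Its exons overlap those of *Tardbp* on the other strand. *Masp1* overlapped between the groups, at a ratio of 0.930, as did the mannose-binding lectins *Mbl1* and *Mbl2*, at 0.928 and 0.960. *C3*, on which all pathways converge, had 0.928, 1.02 and 1.14 (labelled WT) against 0.954, 1.01 and 0.974 (labelled KO). WT replicate 1 was below all KO libraries and WT replicate 3 above them, so the groups overlapped (ratio 0.951, log2 change -0.06, SE 0.09, limma adjusted p = 0.831).

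The promoters of *C1ra* and *Vtn*, whose groups did not overlap, and of *Fga* and *Fgb*, whose groups did, are set side by side because all 4 hold the same pair of motifs. The sequences are RefSeq's, on GRCm38.p6, run 5′ to 3′ on the gene's strand, and cover 250 bases before and 50 after RefSeq's start of transcription. Capitals mark GTTAAT, the core of the site of the hepatocyte factor HNF1, and TTCNNNGAA, the site of STAT factors, each on either strand and without overlap between them.
*C1ra* (chr6:124512371-124512670, plus strand): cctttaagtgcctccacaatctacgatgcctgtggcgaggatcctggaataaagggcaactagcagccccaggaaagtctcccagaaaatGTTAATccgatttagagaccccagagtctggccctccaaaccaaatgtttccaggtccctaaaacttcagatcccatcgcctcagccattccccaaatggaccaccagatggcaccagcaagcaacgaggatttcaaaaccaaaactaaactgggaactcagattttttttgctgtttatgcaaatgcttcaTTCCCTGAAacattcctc
*Vtn* (chr11:78498870-78499169, plus strand): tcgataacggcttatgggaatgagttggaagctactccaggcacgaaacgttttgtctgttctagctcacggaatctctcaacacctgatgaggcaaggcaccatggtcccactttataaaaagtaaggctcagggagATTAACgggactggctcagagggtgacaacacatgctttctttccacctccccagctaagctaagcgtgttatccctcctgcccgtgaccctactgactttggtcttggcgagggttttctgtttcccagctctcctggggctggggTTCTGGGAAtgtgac
*Fga* (chr3:83025903-83026202, plus strand): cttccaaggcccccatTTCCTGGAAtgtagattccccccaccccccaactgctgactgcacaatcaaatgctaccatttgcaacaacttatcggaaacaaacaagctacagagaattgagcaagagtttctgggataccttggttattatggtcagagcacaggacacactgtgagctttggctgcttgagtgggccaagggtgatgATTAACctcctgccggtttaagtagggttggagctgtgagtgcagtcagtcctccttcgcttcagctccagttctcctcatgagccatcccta
*Fgb* (chr3:83049814-83050113, minus strand): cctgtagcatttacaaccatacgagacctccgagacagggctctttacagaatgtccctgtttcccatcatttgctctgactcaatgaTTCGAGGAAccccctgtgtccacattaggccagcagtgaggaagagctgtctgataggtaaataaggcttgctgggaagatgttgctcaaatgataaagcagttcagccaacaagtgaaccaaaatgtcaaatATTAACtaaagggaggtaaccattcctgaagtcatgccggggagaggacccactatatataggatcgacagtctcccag

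The HNF1 core begins at positions -160, -112, -43 and -29 from RefSeq's start of transcription in *C1ra*, *Vtn*, *Fga* and *Fgb*. In the GENCODE annotation used for gene positions, *C1ra* and *Fga* begin further upstream, at 124512405 and 83026076. Their HNF1 cores therefore lie inside the genes as annotated there. The STAT match lies at base 33 and 36 after the start in *C1ra* and *Vtn*, and at -234 and -162 in *Fga* and *Fgb*. None of these genes passed after adjustment, and whether the motifs bear on their values was not tested. *F7*, with the lowest ratio of the hepatocyte members, is also shown, with neither motif in its window and hence no capitals. It does hold ATTGC, a part of the C/EBP site.
*F7* (chr8:13025784-13026083, plus strand): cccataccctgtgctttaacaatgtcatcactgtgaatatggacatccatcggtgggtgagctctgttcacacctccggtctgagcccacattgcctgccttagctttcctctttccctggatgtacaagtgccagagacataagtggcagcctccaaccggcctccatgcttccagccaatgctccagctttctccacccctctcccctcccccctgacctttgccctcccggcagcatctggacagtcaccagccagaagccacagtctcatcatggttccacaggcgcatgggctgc

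A RefSeq promoter was found for 31 of the 40 members, 26 of them hepatocyte members. The HNF1 core was in 7 of those 26 genes (26.9%), against 8.24% of 27025 genes with a promoter. The STAT site was likewise in 7 of 26 (26.9%), against 9.55%. Further motifs searched on both strands were CAAAGTCCA of HNF4A (0 of 26, against 0.555%) and TTGCGCAA of C/EBP factors (0 of 26, against 0.207%). GGGACTTTC of NF-kB was in 0 of 26 (0.403% of all) and CACGTG, the E-box, in 0 of 26 (8.09%). TATAAA was in 3 of 26 (15.7% of all), TGTTTAC of FOXA factors in 2 of 26 (4.05%) and ATTGC, which can overlap the C/EBP site, in 6 of 26 (29.2%). The inverted repeat of GGTCA with 1 base between, the type of site bound by the bile acid receptor FXR, was in 0 of 26 (0.0481%). These are matches of letters in a window of 300 bases and say nothing of binding.

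Terminal complement, the pore-forming part, had 4 of 4 members with a negative log2 change (median -0.11, or 0.026 with libraries scaled to hepatocyte markers). As deposited, KO lay wholly below WT in 0 of them, where 10.1% of all genes did so. *C6* had values of 0.964, 1.16 and 1.09 (labelled WT) against 0.991, 1.02 and 0.872 (labelled KO), with WT replicate 1 below KO replicates 1 and 2 (ratio 0.897, adjusted p = 0.644). *C8b* and *C8g*, 2 chains of C8, had ratios of 0.935 and 0.936. *C9*, which polymerises into the pore, stood at 0.853, 1.03 and 1.24 (labelled WT) against 0.902, 0.890 and 1.00 (labelled KO). WT replicate 1 was lower than every KO library and WT replicate 3 was the highest of the 6 (ratio 0.895, log2 change -0.13, SE 0.14, limma adjusted p = 0.752).

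The complement regulators had the lowest median, -0.21, or -0.075 with libraries scaled to hepatocyte markers. As deposited, 3 of 3 were negative, and KO lay wholly below WT in 2, where 10.1% of all genes did. Vitronectin (*Vtn*, chromosome 11, 78499091 to 78502324, plus strand), which blocks insertion of the pore, had 1.05, 1.16 and 1.04 (labelled WT) against 0.970, 0.882 and 0.883 (labelled KO). KO replicates 2 and 3 were nearly equal and far below WT replicate 2 (ratio 0.842, log2 change -0.22, SE 0.09, limma adjusted p = 0.388). Factor I (*Cfi*), which cuts C3b and C4b, had 1.05, 0.987 and 1.09 (labelled WT) against 0.877, 0.960 and 0.915 (labelled KO) (ratio 0.882, adjusted p = 0.484). C1 inhibitor (*Serping1*), which restrains C1 and plasma kallikrein, had 1.02, 1.19 and 0.985 (labelled WT) against 1.08, 0.807 and 0.848 (labelled KO). KO replicate 1 lay among the WT libraries while KO replicates 2 and 3 lay below, so the groups overlapped (ratio 0.854, log2 change -0.21, SE 0.13, limma adjusted p = 0.585).

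**Figure D2:**
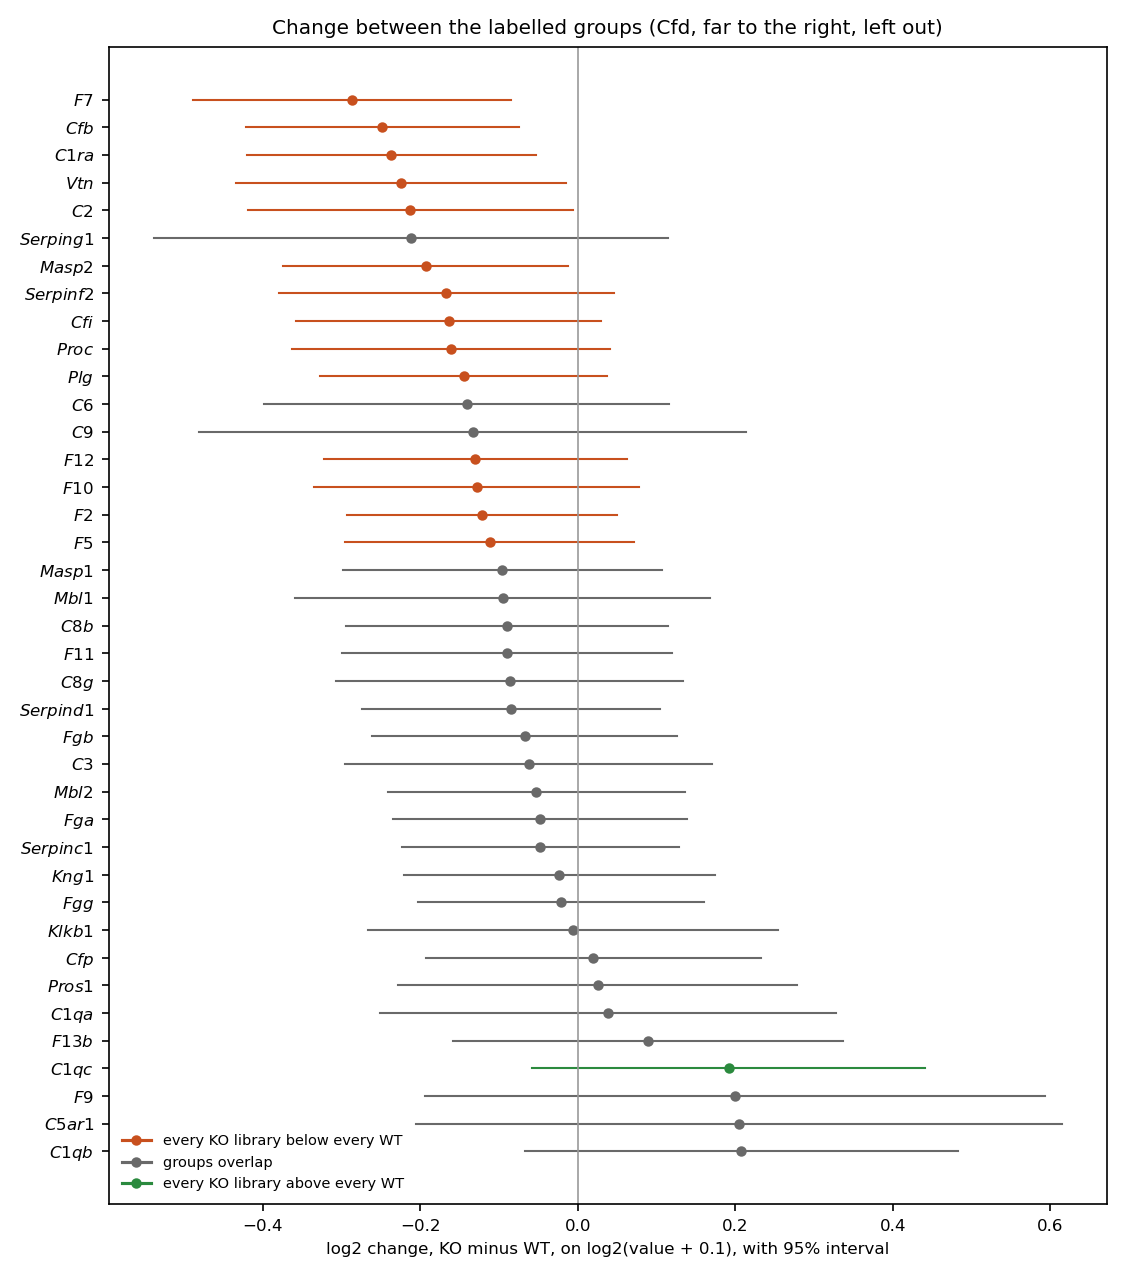
Log2 change (KO minus WT, on log2 of value + 0.1) of 39 members with its 95% interval from limma, as deposited, ordered by size; *Cfd*, at 1.53, is off the axis. Orange marks genes in which KO lay wholly below WT, and green the gene in which it lay wholly above; the interval lies wholly below 0 for *F7*, *Cfb*, *C1ra*, *Vtn*, *C2* and *Masp2*, none of which passed after adjustment.

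Among the hepatocyte members KO replicate 3 was the lowest library in 14 of 34 genes, KO replicate 2 in 9 and KO replicate 1 in 4. Over all genes tested, KO replicate 3 was the lowest in 19.2%, KO replicate 2 in 15.6% and KO replicate 1 in 14.8%. WT replicate 2 was the highest library in 17 of the 34 genes and in 22.3% of all genes. The members' median value by library was 1.03, 1.05 and 1.04 in the WT libraries and 0.982, 0.956 and 0.922 in the KO libraries. Replicates agreed closely for these genes: the coefficient of variation within groups had a median of 5.23% over the 34, from 2.20% in *F2* to 15.2% in *F9*. Over all genes tested its median was 12.2%. At a smaller spread than that of most genes, the hepatocyte members had differences mostly under 10%: 20 of 34 ratios lay within 10% of 1.

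The members made by other cells all had higher means in the libraries labelled KO. Their coefficient of variation within groups was 6.11% in *Cfp*, 8.21% in *C1qc*, 10.2% in *C1qb*, 11.4% in *C1qa* and 74.6% in *Cfd*. Only that of *Cfd* lay outside the range of the hepatocyte members (2.20% to 15.2%). C1q, the antibody-sensing part of C1, is built from 3 chains whose genes lie side by side on chromosome 4 within 136880129 to 136898803. *C1qb* had values of 0.975, 0.834 and 0.980 (labelled WT) against 1.21, 0.975 and 1.08 (labelled KO), and KO replicate 2 lay among the WT libraries (ratio 1.17, log2 change 0.21, SE 0.11, limma adjusted p = 0.526). *C1qc* stood at 0.983, 0.833 and 1.02 (labelled WT) against 1.17, 1.07 and 1.04 (labelled KO). The groups did not overlap, with KO higher, though WT replicate 3 and KO replicate 3 were close (ratio 1.15, log2 change 0.19, SE 0.10, limma adjusted p = 0.523). *C1qa* overlapped, with 0.980, 0.950 and 1.04 (labelled WT) against 1.21, 0.930 and 0.938 (labelled KO), and its high value was in KO replicate 1 alone (ratio 1.04, adjusted p = 0.923; log2 change -0.074 without KO replicate 1). The ratio of *C1qb* to *C1qc* within a library stayed between 0.915 and 1.04, and that of *C1qa* to *C1qb* between 0.866 and 1.14.

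Macrophage markers also had higher scores in the libraries labelled KO. A score, the mean of log2 values centred over the 6 libraries, was -0.04, -0.19 and 0.01 for the 3 C1q genes in WT and 0.23, -0.02 and 0.02 in KO. For 11 markers of Kupffer cells, the macrophages resident in liver, it was -0.07, -0.19 and 0.01 against 0.15, 0.05 and 0.05. For 16 monocyte and macrophage markers it was -0.10, -0.16 and -0.21 against 0.30, 0.13 and 0.05. The C1q scores overlapped between the groups and both marker scores did not. In all 3 scores KO replicate 1 was the highest library. The Kupffer genes *Timd4* and *Adgre1* had ratios of 1.47 and 1.34, both without overlap and short of the threshold. The monocyte genes *Mpeg1* and *Ly6c2* had 1.60 and 2.18. Of the Kupffer markers 7 of 11 had a positive log2 change (median 0.10), and of the monocyte and macrophage markers 14 of 16 did (median 0.26). KO lay wholly above WT in 4 of the 11 and in 3 of the 16, where 8.86% of all genes did. The 4 negative Kupffer markers were *Id3* (0.899), *Cd163* (0.939), *Folr2* (0.971) and *Slc40a1* (0.974). The 2 negative monocyte and macrophage markers were *Itgam* (0.818) and *Trem2* (0.915). All of these negative markers overlapped between the groups and were named after their values were seen. None of the markers measured was at 0 in a library. The part of cell number in the C1q values was not tested.

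Adipsin, factor D of the alternative pathway (*Cfd*, chromosome 10, 79890853 to 79892655, plus strand), had the largest difference of any member. Its values were 0.450, 0.726 and 0.202 (labelled WT) against 1.11, 0.845 and 2.77 (labelled KO). KO replicate 3 stood far above all others, while KO replicate 2 was close to WT replicate 2. The means were 1.58 ± 1.04 in KO and 0.459 ± 0.262 in WT (SD, n = 3), which gives a ratio of 3.43 (log2 change 1.53, SE 0.53, limma adjusted p = 0.358), with a 95% interval of the log2 change of 0.21 to 2.84. Without KO replicate 3 the log2 change was 1.06. The 6 other adipocyte markers with a value scored -0.23, 0.02 and -0.01 in WT and -0.02, 0.06 and 0.19 in KO. Their highest score was in KO replicate 3 and their lowest in WT replicate 1, and the groups overlapped. *Pparg*, a regulator of fat cell genes, had 0.806, 0.969 and 0.869 (labelled WT) against 1.00, 1.24 and 1.40 (labelled KO), without overlap and highest in KO replicate 3 (ratio 1.38, adjusted p = 0.349). Of the 7 adipocyte markers tested, *Cfd* included, 5 had a positive and 2 a negative log2 change. The 2 were *Car3*, at a ratio of 0.830 and wholly below WT, and *Lipe*, at 0.912 with overlap, both named after their values were seen. None of the adipocyte markers measured was at 0 in a library. The defining adipocyte genes *Adipoq*, *Plin1* and *Lep* are not analysed here, and the part of fat cells in the *Cfd* values was not tested.

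Properdin (*Cfp*), which stabilises the alternative pathway's convertase, showed no difference beyond its spread, with 1.07, 0.952 and 1.01 (labelled WT) against 1.08, 1.04 and 0.955 (labelled KO) (ratio 1.02, 95% interval of the log2 change -0.19 to 0.23). The C5a receptor (*C5ar1*) had 1.12, 0.983 and 0.711 (labelled WT) against 1.16, 1.00 and 1.08 (labelled KO). WT replicate 3 was the lowest library and WT replicate 1 lay among the KO libraries (ratio 1.15, log2 change 0.20, SE 0.17, limma adjusted p = 0.672).

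**Figure D3:**
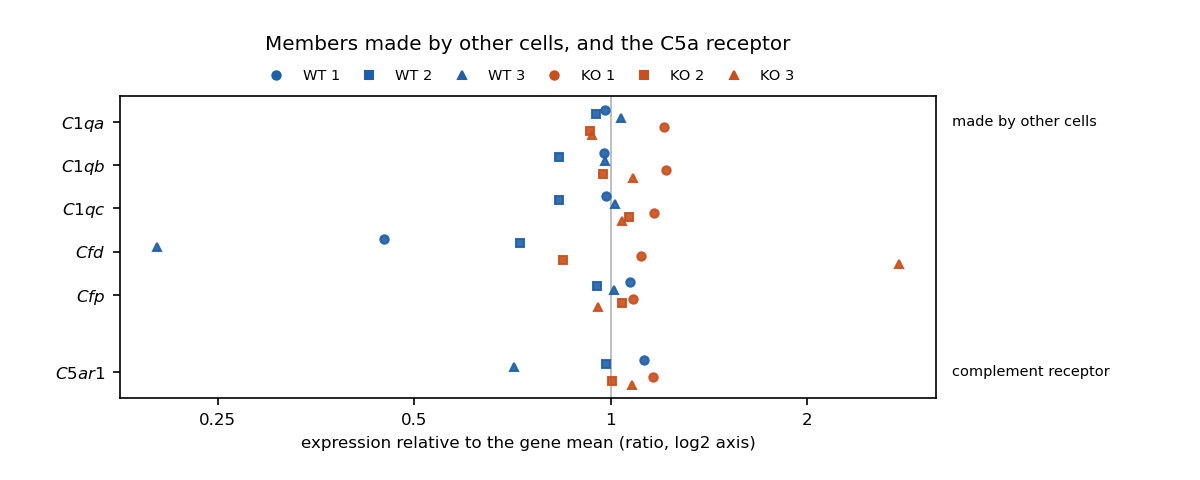
Expression of the 5 members made by other cells and of *C5ar1* in each library, relative to each gene's mean (log2 axis); blue marks libraries labelled WT, orange KO, and shapes replicates. *Cfd* ranges from 0.202 to 2.77, whereas the C1q genes and *Cfp* lie between 0.833 and 1.22.

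**Figure D4:**
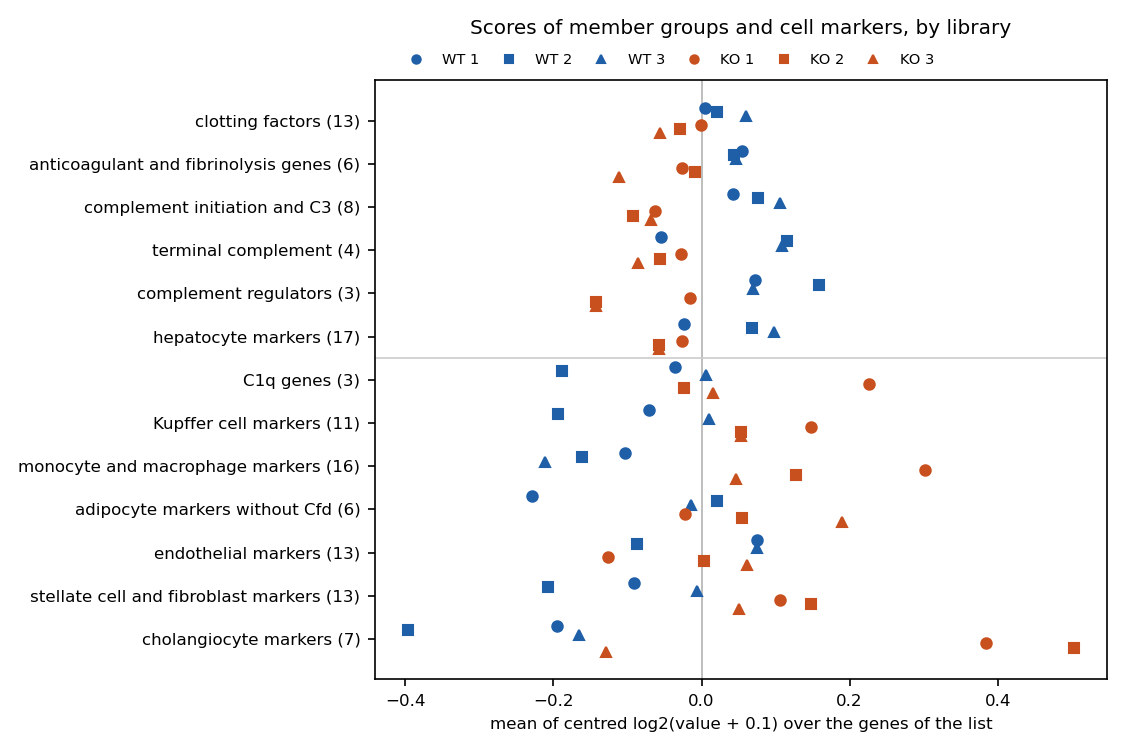
Score of each group of members and of marker lists in each library (mean of log2(value + 0.1), centred over the libraries), with the number of genes in brackets. The scores of clotting, anticoagulant, initiating and regulatory members lie lower in the libraries labelled KO and do not overlap in the values as deposited. The clotting scores barely part, at 0.0041 in the lowest WT and -0.0012 in the highest KO library. With scaling to hepatocyte markers the median changes of the first 2 groups turn positive (0.069 and 0.022). Those of initiating and regulatory members stay negative, the former only just. The macrophage scores lie higher.

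Related genes outside the list had differences in both directions, and 0 of them passed in limma. At an unadjusted p under 0.05, 1 further complement component was lower, 1 regulator or receptor higher, 2 coagulation genes higher and 3 fibrinolysis genes higher. Over all genes 5.53% were lower and 6.5% higher at that p. Of 10 further complement components with a test, 8 had a negative log2 change (median -0.064). In 4 of them KO lay wholly below WT, where 10.1% of all genes did. *Cpn2*, the carrier subunit of carboxypeptidase N, which trims the anaphylatoxins, had 1.06, 1.12 and 1.03 (labelled WT) against 0.917, 0.936 and 0.911 (labelled KO) (ratio 0.862, adjusted p = 0.380). *C8a*, another chain of C8, had a ratio of 0.855, and the ficolin gene *Fcna* 0.870. *Hc*, the mouse gene of C5, overlapped, at 0.869. Complement regulators and receptors outside the list had 12 of 18 positive changes (median 0.053), unlike the 3 regulators of the list, though this difference was not tested. *Cd59b*, which blocks the pore on cell surfaces and has a close paralog in *Cd59a* that could share its reads, had a ratio of 1.37 without overlap, and *C4bp*, a secreted inhibitor of the classical pathway, 1.10, also without overlap. *Clu* and *Itgam* had 0.883 and 0.818, both with overlap.

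Of 21 further coagulation genes 11 were negative (median -0.0069). In every KO library 3 were above and 1 below WT, against 8.86% and 10.1% of all genes. *Vkorc1l1*, a vitamin K reductase, had a ratio of 1.18 without overlap. *Serpina5*, the protein C inhibitor, had 0.862, 0.138 and 0.467 (labelled WT) against 2.41, 1.75 and 1.01 (labelled KO). It was higher in every KO library, with wide spread in both groups (ratio 3.52, log2 change 1.77, SE 0.57, limma adjusted p = 0.325). *Tfpi2*, a protease inhibitor related to tissue factor pathway inhibitor, had 0.669, 0.845 and 0.926 (labelled WT) against 1.14, 1.31 and 1.28 (labelled KO) (ratio 1.53, adjusted p = 0.226). Von Willebrand factor (*Vwf*), made by endothelium, had a ratio of 0.841 without overlap.

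Fibrinolysis genes outside the list had 6 of 9 positive changes (median 0.40), and 4 were higher in every KO library, where 8.86% of all genes were. *Anxa2*, a surface receptor that brings plasminogen and its activator together, had 0.904, 0.768 and 0.759 (labelled WT) against 1.33, 1.25 and 1.22 (labelled KO) (ratio 1.56, log2 change 0.59, SE 0.09, limma adjusted p = 0.143). The tissue plasminogen activator *Plat* had 0.794, 0.574 and 0.861 (labelled WT) against 1.00, 1.50 and 1.19 (labelled KO) (ratio 1.66, adjusted p = 0.291), and the plasminogen receptor *Plgrkt* a ratio of 1.55. *Serpine2*, an inhibitor of thrombin and plasminogen activators, had the opposite direction, at 1.22, 1.21 and 1.27 (labelled WT) against 0.870, 1.07 and 0.474 (labelled KO) (ratio 0.653, adjusted p = 0.434). *Plg* itself, the zymogen that *Plat* activates, was lower in every KO library.

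A list of acute phase genes, most of them secreted by hepatocytes in inflammation, also held the interleukin 6 receptor genes *Il6ra* and *Il6st* and the intracellular inhibitor *Socs3*. It had 13 of 22 negative changes, those 3 included, and a median of -0.043. In every KO library 3 were above and 4 below WT, against 8.86% and 10.1% of all genes. *Itih4* had 1.14, 1.12 and 1.13 (labelled WT) against 0.839, 0.730 and 0.878 (labelled KO) (ratio 0.722, log2 change -0.43, SE 0.09, limma adjusted p = 0.199) and *Serpina3m*, one of a family of near-identical genes that could share reads, a ratio of 0.845, while serum amyloid P (*Apcs*) and lipocalin 2 (*Lcn2*) had 1.34 and 2.55. Of 17 liver transcription factors 11 were negative (median -0.11). *Nr0b2*, the repressor SHP that FXR induces, had 0.772, 1.28 and 1.06 (labelled WT) against 0.767, 0.532 and 0.495 (labelled KO) (ratio 0.576, log2 change -0.70, SE 0.22, limma adjusted p = 0.324). *Prox1*, *Ppara* and *Cebpd* had ratios of 1.49, 1.21 and 1.25, the last with overlap. The hepatocyte factors *Hnf4a*, *Cebpa* and *Nr1h4*, which encodes FXR, were chosen after their values were seen, for their known role at liver promoters, and stood at 0.985, 0.975 and 1.07.

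**Figure D5:**
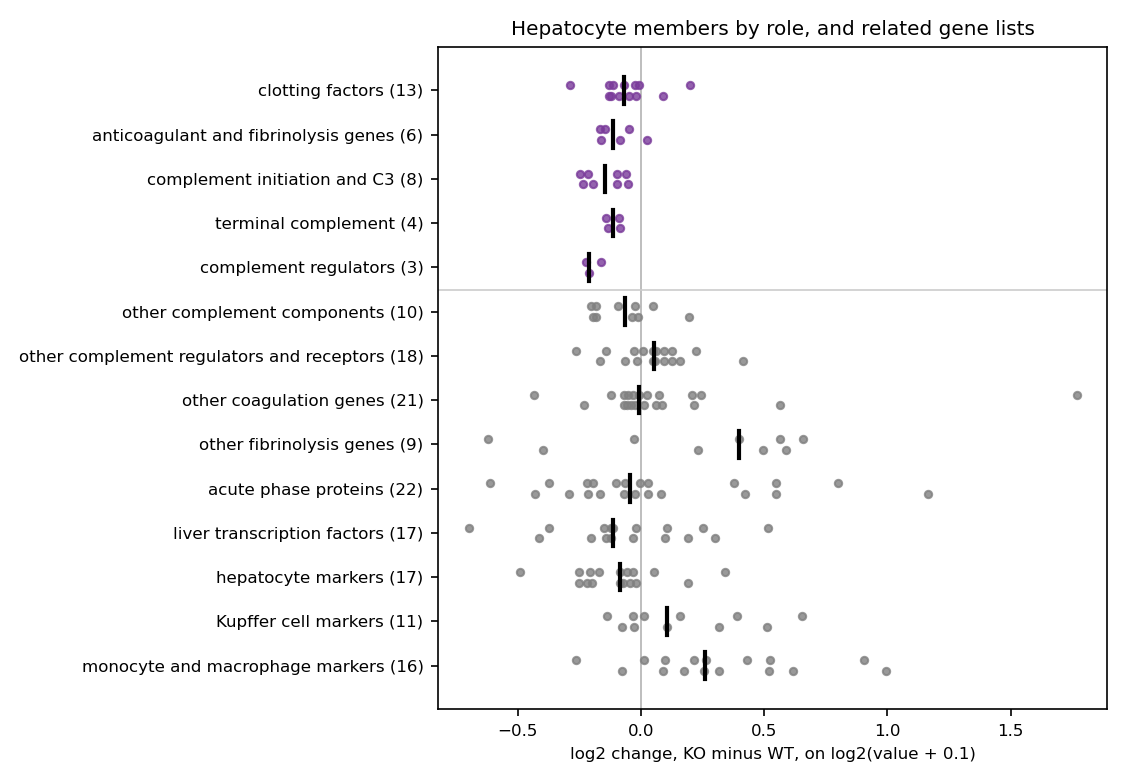
Log2 change of single genes (dots; KO minus WT, on log2 of value + 0.1, as deposited) in the hepatocyte members by role (purple) and in related lists (grey), with the number of genes tested in brackets and the median as a black line. The members' dots lie mostly between -0.3 and 0.1, while the fibrinolysis and macrophage lists reach further to the right.

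Other cell markers differed between the groups beside these results. Of 17 hepatocyte markers 14 had a negative log2 change, with *Ttr* at a ratio of 0.825 and *Ambp* at 0.826. KO lay wholly below WT in 5 of the 17. Over all genes 10.1% lay wholly below WT and 8.86% wholly above. All 17 were above 0 in every library of this liver RNA. Their scores were -0.02, 0.07 and 0.10 in WT and -0.03, -0.06 and -0.06 in KO. Cholangiocyte markers scored -0.20, -0.40 and -0.17 against 0.38, 0.50 and -0.13, with *Spp1* at 2.02 and *Krt7*, which overlapped between the groups, at 1.67. All 7 of them had a positive log2 change, and KO lay wholly above WT in 1. Of 13 stellate cell and fibroblast markers 9 had a positive and 4 a negative log2 change, with 4 wholly above and 1, *Ecm1*, wholly below WT (0.823; named after its value was seen). They scored -0.09, -0.21 and -0.01 against 0.11, 0.15 and 0.05, with *Col1a1* at 1.75 and *Col3a1* at 1.55. Of 13 endothelial markers 11 had a negative and 2 a positive log2 change (median -0.11). Their scores overlapped, at 0.07, -0.09 and 0.07 against -0.13, 0.003 and 0.06. *Lyve1*, 1 of the 2 positive, stood at 1.87 and *Stab2* at 0.840. Scores of neutrophil and of B and T cell markers overlapped between the groups. Of 6 neutrophil markers 5 had a positive log2 change, with *Csf3r* at 1.27 and *Mmp9* at 0.589. Of 7 B and T cell markers 4 did, with *Cd2* at 1.79 and *Cd3d* at 1.84. Only 4 of 12 listed tumour and fetal liver markers were tested, and each overlapped between the groups. They were *Top2a* (2.07), *Cd24a* (1.39), *Gpc3* (1.14) and *Birc5* (1.13), and scored -0.21, -0.16 and -0.31 against 0.18, 0.38 and 0.13. The part of these cells in the members' values was not tested.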

How the data were processed

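The deposited table gives 1 value per gene and library as a ratio: the authors' expression value divided by the gene's mean. The unit was read from the values, since the largest value and the largest row sum are both 7, which means that the mean was taken over 7 libraries, 1 of them not analysed here. STAR 2.10, R 4.0.5 and the build mm10 are named in the submitters' processing notes, without their roles. The sources used here do not give the counter, the annotation or the scaling between libraries, and depth is unknown. Of 12792 rows, 189 had no value in any library. Groups follow the labels. Rows had to exceed 0 in at least 3 libraries, which left 12578. On these, log2(value + 0.1) of KO and WT was compared with limma 3.58.1 in R 4.3.3, with no trend of variance on the mean. P-values were adjusted by the Benjamini-Hochberg method, with a threshold of 0.05. The fit was tested on simulated data. The residual degrees of freedom were 4, and limma's prior added 1.87, so precision is limited by the number of libraries.

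The members and lists were chosen with earlier results of these data known. All members are named, with up to 4 genes of each related list and 2 of each marker list by smallest p. Exceptions are stated where they stand, and *Apob*, *Gpc3* and *Birc5* are further ones. Alternatives were pseudocounts of 0.01 and 1, other filters on low values, a mean trend, 2 scalings, a replicate block and leaving out each library. Promoters are RefSeq's, gene positions those of a GENCODE annotation of mm10.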

Additional observations from a re-analysis of the deposited data

How the results depend on the processing

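No member passed the threshold under any of the 14 alternatives, the smallest adjusted p being 0.215 in limma. The sign of the log2 change was kept under all 14 by 18 members and changed under at least 1 by 22. In 19 members the sign changed with scaling to the hepatocyte markers, which moved the median of all genes from -0.0043 to 0.13. That common shift fixes the sign of small negative changes, so these say nothing of single members. Log2 changes then turned positive in *F2* (0.015), *F5* (0.025), *F10* (0.0089), *F11* (0.048), *F12* (0.0070), *Fga* (0.090), *Fgb* (0.069), *Fgg* (0.12), *Klkb1* (0.13), *Kng1* (0.11), *Serpinc1* (0.090) and *Serpind1* (0.052). They also did in *C3* (0.075), *Masp1* (0.041), *Mbl1* (0.042), *Mbl2* (0.085), *C8b* (0.047), *C8g* (0.051) and *C9* (0.0037). Under that scaling 0 members were lower and 3 higher at an unadjusted p under 0.05, where 1.73% and 16.6% of all genes were. KO lay wholly below WT in 2 members and wholly above in 6, where 2.71% and 24.2% of all genes did. The median log2 change was then 0.048 for all members, 0.069 for clotting factors, 0.022 for anticoagulant and fibrinolysis genes, -0.0073 for complement initiation and C3, 0.026 for terminal complement, -0.075 for regulators and 0.33 for members made by other cells.

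A pseudocount of 1, which shrinks changes by construction, left 1 gene called and medians of -0.049 for all members, -0.037 for clotting factors, -0.063 for anticoagulant genes, -0.080 for initiation and -0.11 for regulators. Requiring values above 0 in all 6 libraries left 0 of all genes called, when 692 were lower and 810 higher at an unadjusted p under 0.05. A mean trend left 0 of all genes called and 0 members higher at an unadjusted p under 0.05, when 723 of all genes were lower and 850 higher at that p.

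Whether the replicate numbers pair the samples is not known. Deviations of same-numbered libraries correlated at -0.021, -0.0020 and 0.089, the last being the highest of any pair. WT replicate 1 correlated better with KO replicate 2 (0.082) than with its own number. Correlations this small cannot settle whether the samples were paired. With a replicate block 1 gene was called, and 2 members were lower and 0 higher at an unadjusted p under 0.05, where 4.65% and 6.61% of all genes were.

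Leaving out each library in turn gave 0 to 4 genes called, with 0 without any 1 of the KO libraries, 1 without WT replicate 2 and 4 without WT replicate 3. It gave 2 to 6 members lower at an unadjusted p under 0.05, where 3.95% to 5.15% of all genes were, with 2 without WT replicate 1 or KO replicate 2 and 3 without replicate 3 of either group or WT replicate 2. It gave 0 to 1 higher at that p, with 0 without replicate 3 of either group or WT replicate 1, and 2 to 4 members in which KO lay wholly above WT, with 4 without WT replicate 3, when 15.9% of all genes did so. The median was -0.097 to -0.036 for clotting factors and -0.18 to -0.14 for complement initiation and C3. Log2 changes crossed 0 in *Klkb1* (-0.097 to 0.064), *Pros1* (-0.036 to 0.091), *Cfp* (-0.019 to 0.066), *C3* (-0.13 to 0.0066), *C1qa* (-0.074 to 0.097) and *Kng1* (-0.055 to 0.026). Apart from the scaling, the pseudocount and the fewer samples or genes, the cause of these shifts was not tested. Read depth is unknown, so no limit that it sets can be given.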
